A study of Mus musculus with 4 samples.

Results

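The transcripts of 10 interferon-stimulated genes (Ifit1, Ifit2, Ifit3, Isg15, Isg20, Oasl2, Rsad2, Usp18, Rtp4 and Mx1) were followed in mouse naive CD4+ T cells and in induced Treg (iTreg) cells after 3 h of culture. They were chosen by gene name. All 10 had at least 1 probe among the 36693 genes named on the array, with 13 probes in all, and 3 of them (Isg20, Mx1 and Rsad2) had 2. Single-colour Agilent arrays measured 4 conditions with 1 array each, namely naive T cells and iTreg cells at 3 h, each as WT and as Nr4a-TKO. The Nr4a-TKO cells lack Nr4a1, Nr4a2 and Nr4a3, nuclear receptors induced by TCR signals, through floxed Nr4a1 and Nr4a2 alleles and a germline Nr4a3-/- allele on C57BL/6J, with the Foxp3 hCD2-hCD52 knock-in used to gate Foxp3- cells. The Cre that deletes the floxed alleles is not given in the sources used here, and the labels give no age, while the study's methods describe the parent strains as young adults of both sexes.

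Naive cells were sorted as CD4+, CD25 low, CD44 low, CD62L high and Foxp3- from spleen and lymph nodes of irradiated Rag2-/- mice given bone marrow. The hosts of the Nr4a-TKO cells had received WT marrow mixed with Nr4a-TKO marrow, whereas those of the WT cells had received WT marrow alone, so genotype and kind of chimera cannot be told apart. A congenic marker separated Nr4a-TKO cells from the WT cells of the same host. The iTreg cells had spent 3 h on plate-bound anti-CD3 (2 µg/ml) with anti-CD28 (0.5 µg/ml), IL-2 (10 ng/ml), TGF-β1 at 0.2 ng/ml or at 0.5 ng/ml (the labels do not say which), and antibodies that neutralise IFN-γ (1 µg/ml) and IL-4 (1 µg/ml). No array of cells cultured without these stimuli was used here. Naive T and iTreg thus differed in time out of the mouse, TCR and CD28 stimulation, IL-2, TGF-β1 and the blocking of IFN-γ and IL-4. These cannot be told apart as sources of a difference between naive T and iTreg.

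Type I interferons (the IFN-α family and IFN-β) bind the receptor chains Ifnar1 and Ifnar2, and the kinases Jak1 and Tyk2 then activate transcription factors that, together with Irf9, bind the interferon-stimulated response element (ISRE) in promoters of interferon-stimulated genes. IFN-γ signals through Ifngr1, Ifngr2, Jak1 and Jak2 to the gamma-activated site (GAS). Many of the induced genes block viral replication, and naive lymphocytes carry some of these transcripts without infection, at levels set by tonic interferon signals.

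The promoters of the genes are shown first because the ISRE, through which type I interferons act, lies in promoters. In the RefSeq table of GRCm38.p6, windows from 250 bases before to 50 bases after a transcription start were found for 7 of the 10 genes (10 windows). Usp18, Rtp4 and Mx1 had no entry. The ISRE was searched as GAAANNGAAA on both strands, with TTTCNNTTTC as its reverse complement and overlapping matches counted. It occurred in Ifit1, Ifit3, Isg15 and Rsad2, that is in 57.1% of the 7 genes against 3.99% of the 27025 genes in the table. By window, it was in 40.0% of theirs and in 3.44% of all 32851. The stretches with the matches, with the ISRE in capitals and written along the gene's strand, are as follows.
Ifit1, chr19:34640755-34640843, plus strand: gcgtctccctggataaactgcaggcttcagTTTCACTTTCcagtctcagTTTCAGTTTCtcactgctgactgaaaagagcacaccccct
Ifit3, chr19:34583343-34583446, plus strand: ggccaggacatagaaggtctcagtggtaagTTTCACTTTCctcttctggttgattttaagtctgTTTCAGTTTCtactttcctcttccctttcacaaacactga
Isg15, chr4:156200845-156200926, minus strand: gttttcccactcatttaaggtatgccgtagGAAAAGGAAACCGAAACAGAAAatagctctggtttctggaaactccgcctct
Rsad2, chr12:26456533-26456602, minus strand: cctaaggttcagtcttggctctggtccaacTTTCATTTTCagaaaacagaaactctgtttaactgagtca

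The matches in Ifit1 began 104 and 85 bases upstream of the start, and those in Ifit3 began 156 and 122 bases upstream. Both genes held the same pair of matches, TTTCACTTTC and TTTCAGTTTC, in the same order. Isg15 held 3 overlapping matches, from 78, 72 and 66 bases upstream, and Rsad2 held 1 from 120 bases upstream. The GAS was searched as TTCNNNGAA, which is its own reverse complement. It was found in Ifit2 (TTCCTGGAA, 241 bases upstream) and Isg20 (TTCTTGGAA, 73 bases upstream), which makes 28.6% of the 7 genes against 9.55% of all. A match is a description of the letters and was not tested as a binding site.

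Each array carried 62976 spots, and between 65.0% and 67.7% of its probes were well above local background by the scanner software's own call. Values below are log2 of the intensity after background correction and quantile normalization. With 1 array per condition there is no spread between replicates, so no difference was tested and none carries a p-value. As the only available scale, probes printed on several spots put the SD of a log2 difference at 0.18 for a pair of arrays, which leaves out any variation between mice. A threshold of 2-fold (1 on the log2 scale) was used for counts. A probe not well above background on an array was raised to that array's lowest value of a probe that was (from 3.07 to 3.45), and the difference is then written as "at least". In bulk RNA, fewer cells of a kind and less RNA per cell cannot be told apart. As a check of the labels, the Nr4a1 probe was higher by 1.34 in naive T and 0.48 at 3 h (log2) on the array labelled Nr4a-TKO, and both Nr4a2 probes were higher there at 3 h by 1.37 and 1.38. For Nr4a3, 2 of 3 probes were lower there at 3 h, by -1.86 and -1.47, and one differed by 0.19. Whether the probes lie inside the deleted parts was not analysed here, so arrays are named by their labels and each direction between genotypes rests on those.

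Most of the 10 genes had clearly lower signals after 3 h of iTreg culture, on the arrays of both genotype labels. On the arrays labelled WT, 6 of 10 were more than 2-fold lower and 0 more than 2-fold higher. Among the 26428 genes that could be compared, 8.26% were lower by more than 2-fold and 8.26% higher. The median log2 change of the 10 was -1.42, against -0.05 over all genes. On the arrays labelled Nr4a-TKO, 9 genes were measured, of which 6 were more than 2-fold lower and 0 higher, against 7.67% and 7.63% of all 26977 genes. Their median was -1.88, against -0.02 over all genes. The same 6 genes (Rtp4, Ifit3, Ifit2, Ifit1, Rsad2 and Usp18) passed 2-fold in both. Isg15 and Isg20 were lower by less than 2-fold, Oasl2 sat close to background, and Mx1 did not follow the others. With a larger normexp offset of 50, which damps differences of dim probes, 3 genes passed 2-fold in each, and of all genes 1018 of 26435 and 877 of 26977 were more than 2-fold lower.

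**Figure D1:**
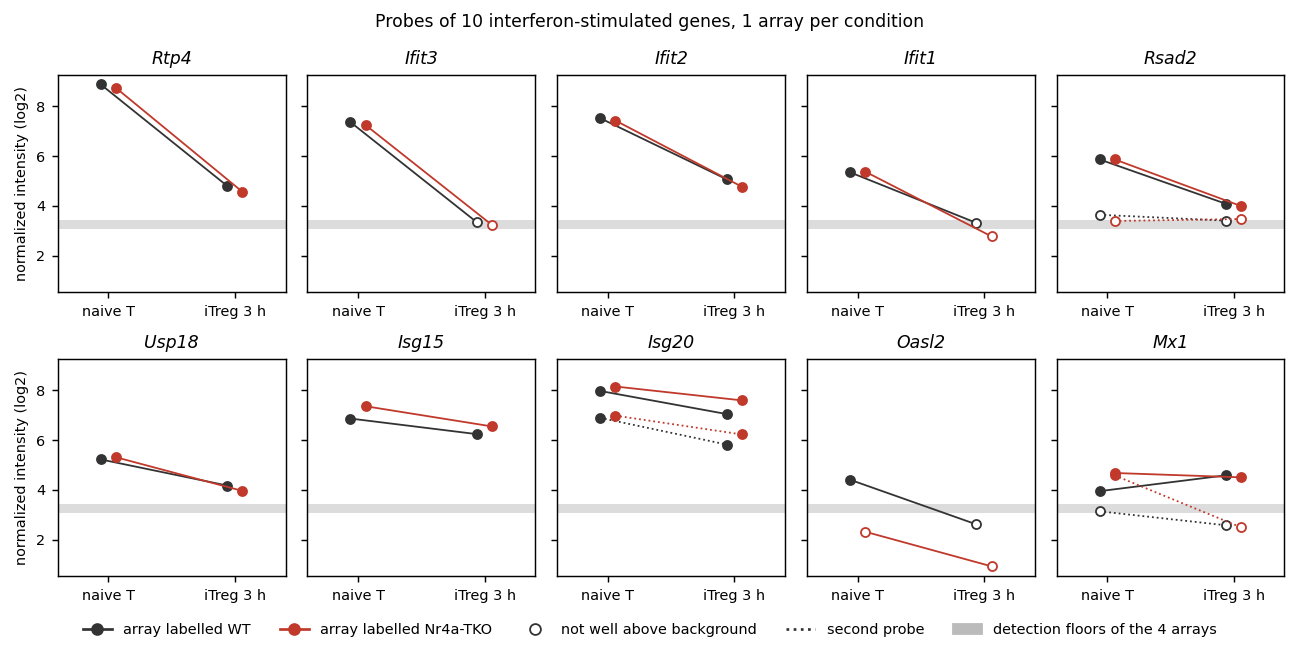
Normalized intensity (log2) of every probe of the 10 genes on the 4 arrays, with naive T on the left and iTreg on the right of each panel, 1 array per point. Open circles are not well above background and the grey band spans the floors of 3.07 to 3.45. Rtp4 falls from 8.88 to 4.79 and from 8.74 to 4.56, the Ifit3 probe reaches the floor at 3 h, and the 2 probes of Mx1 do not run together.

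Rtp4, a Golgi chaperone that helps G-protein-coupled receptors reach the cell surface and is strongly induced by interferon, was among the genes of the set with the furthest falls. Its probe (chromosome 16 of mm9, 23613668 to 23613727) read 8.88 in WT and 8.74 in Nr4a-TKO naive T, and 4.79 in WT and 4.56 in Nr4a-TKO iTreg cells. Both naive arrays were high and both iTreg arrays low. The fall was 17.0-fold on the arrays labelled WT and 18.1-fold on those labelled Nr4a-TKO. Counting Rtp4 itself, 17 genes of the whole array fell at least as far in WT and 10 in Nr4a-TKO. On the scale of raw spot means, the naive signal was 435 and 390 and the iTreg signal 46.8 and 42.7, over a local background of 21.

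The Ifit genes encode cytoplasmic proteins with tetratricopeptide repeats, and Ifit1 binds viral RNA with unmodified caps. Their probes lie close together on chromosome 19 of mm9. Ifit2 (34650244 to 34650303), Ifit3 (34663105 to 34663164) and Ifit1 (34723827 to 34723886) were all well above background in naive T of both labels. Ifit3 read 7.36 and 7.24 in WT and Nr4a-TKO naive T, and 3.33 and 3.22 at 3 h, where neither array had it well above background. The fall was at least 15.3-fold in WT and at least 16.2-fold in Nr4a-TKO. Ifit2 stayed above background at 3 h. It read 7.52 and 7.43 in naive T and 5.06 and 4.77 at 3 h, which is 5.49-fold lower in WT and 6.33-fold lower in Nr4a-TKO.

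Ifit1 read 5.35 and 5.38 in naive T and was not well above background at 3 h (3.31 and 2.77). It was at least 3.78-fold lower in WT and at least 4.94-fold lower in Nr4a-TKO. Since the naive value lay nearer the floor than that of Ifit3, the smaller bound is no sign of a smaller fall. The close paralog Ifit3b, which may share hybridisation with Ifit3, read 5.58 and 5.69 in naive T and 3.71 and 3.68 at 3 h on its own probe, with log2 changes of -1.87 and -2.01. All 3 Ifit genes and this paralog thus had both naive arrays above both iTreg arrays.

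Rsad2 encodes viperin, a radical SAM enzyme that converts CTP into a chain terminator of viral polymerases. Its brighter probe (chromosome 12 of mm9, 27127859 to 27127918) read 5.86 in naive T of both labels, and 4.08 in WT and 3.98 in Nr4a-TKO at 3 h. The fall was 3.45-fold and 3.67-fold, respectively. The second probe, whose mapped span runs from 27135585 to 27138886, was not well above background on any array (3.39 to 3.64) and gives no change. The result for Rsad2 therefore rests on a single probe.

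Isg15 and Usp18 belong to one pathway. Isg15 is a ubiquitin-like protein that is joined to target proteins, and Usp18 removes it and also binds Ifnar2 to dampen the receptor. The Usp18 probe (chromosome 6 of mm9, 121220874 to 121220933) read 5.22 in WT naive T, 5.31 in Nr4a-TKO naive T, 4.17 in WT at 3 h and 3.96 in Nr4a-TKO at 3 h. It was 2.07-fold lower in WT, just past the threshold, and 2.56-fold lower in Nr4a-TKO. The Isg15 probe (chromosome 4 of mm9, 155573649 to 155573708) read 6.87, 7.36, 6.24 and 6.55 in the same order. It was lower at 3 h by less than 2-fold under each label, with log2 changes of -0.63 and -0.81. Isg15 had 3 overlapping ISRE matches and fell less than Ifit1 and Ifit3 with 2 each, whose falls are bounds. Whether the number of matches bears on the changes was not tested.

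Isg20 encodes an exonuclease that degrades single-stranded RNA. Its 2 probes lie on chromosome 7 of mm9. The brighter probe (86065136 to 86065195) read 7.97 in WT naive T, 8.15 in Nr4a-TKO naive T, 7.05 in WT at 3 h and 7.60 in Nr4a-TKO at 3 h, with changes of -0.93 and -0.56. The other probe (86061478 to 86061537) read 6.89, 6.98, 5.82 and 6.23, with changes of -1.08 and -0.76. Both probes were thus lower at 3 h under each label, and the WT change lay on either side of the threshold depending on the probe.

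In naive T, Oasl2 and Mx1 were the dimmest of the genes over their own background. Oasl2 encodes a ubiquitin-like relative of the 2′-5′-oligoadenylate synthetases, which sense double-stranded RNA. Its probe (chromosome 5 of mm9, 115362168 to 115362227) was well above background only in WT naive T, at 4.41, and read 2.32 in Nr4a-TKO naive T and 2.61 and 0.92 at 3 h. The fall in WT was at least 1.97-fold, and no change is given for Nr4a-TKO. Mx1 encodes a dynamin-like antiviral GTPase, and the C57BL/6 allele is known to lack coding exons. Its 2 probes share their lowest coordinate on chromosome 16 of mm9 (97668644) and reach 97668668 for the brighter probe and 97668703 for the other. The brighter one read 3.95 in WT naive T, 4.68 in Nr4a-TKO naive T, 4.58 in WT at 3 h and 4.50 in Nr4a-TKO at 3 h, a change of 0.64 in WT and -0.17 in Nr4a-TKO. The other was well above background only in Nr4a-TKO naive T, at 4.58, with 3.14 in WT naive T and 2.57 and 2.49 at 3 h, a fall of at least 2.84-fold in Nr4a-TKO. The probes of Mx1 disagree in direction in WT as read and in size in Nr4a-TKO, and raw spot means of 22.5 to 42.9 over a background near 20 leave little room to order them.

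**Figure D2:**
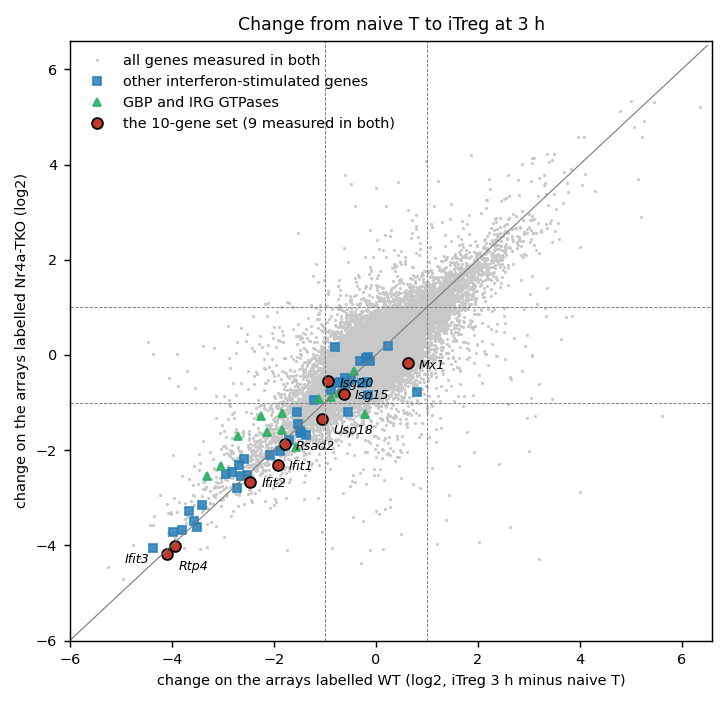
Log2 difference of iTreg at 3 h minus naive T, on the arrays labelled WT (x axis) and Nr4a-TKO (y axis), 1 point per gene, with dashed lines at 2-fold and the diagonal marking equal change. Of the 10-gene set, 6 lie in the lower left beyond 2-fold on both axes, from Rtp4 (-4.08 and -4.18) to Usp18 (-1.05 and -1.35), and Mx1 lies apart. The values of Ifit1 and Ifit3 are bounds, and Oasl2 has no value for Nr4a-TKO.

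Other interferon-stimulated genes moved the same way. Of a list of 46, 43 were on the array. On the arrays labelled WT 23 of 41 measured were more than 2-fold lower and 0 higher, with a median of -1.46. On the arrays labelled Nr4a-TKO 23 of 42 were lower and 0 higher, with a median of -1.33. The furthest falls were those of Oas3, a 2′-5′-oligoadenylate synthetase (at least -4.37 in WT and -4.06 in Nr4a-TKO on the log2 scale), Xaf1, a pro-apoptotic factor (at least -3.97 and -3.73), and Cmpk2, a mitochondrial nucleotide kinase that neighbours Rsad2 in the genome (at least -3.80 and at least -3.68). Members of the list that sense RNA or edit it did not all fall: Ddx58, which encodes RIG-I, changed by -3.57 and -3.49, whereas Adar changed by -0.20 and -0.06.

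Genes that IFN-γ induces most strongly also had lower signals. Of 13 measured guanylate-binding proteins and immunity-related GTPases, which attack vacuoles of intracellular pathogens, 9 were more than 2-fold lower in WT and 9 in Nr4a-TKO, and 0 were higher. Their medians were -1.83 and -1.28. Tgtp2 went from 10.74 to 7.43 in WT and from 10.54 to 7.99 in Nr4a-TKO, Gbp7 changed by -3.04 and -2.34, and Gbp4 changed by -2.71 and -1.71. The ISRE was found in 90.0% of the 10 genes of this list with a promoter entry, and the GAS in 6 of them. Of 8 genes of antigen processing, 5 were more than 2-fold lower in WT and 6 in Nr4a-TKO. The immunoproteasome subunits Psmb9 (-2.87 and -2.38) and Psmb8 (-1.90 and -2.21) led them, and B2m, the light chain of MHC class I, changed by 0.15 and 0.08.

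The enzymes that attach Isg15 were lower as well, with Uba7 and Herc6 past 2-fold where Isg15 was not. Uba7, its activating enzyme, went from 10.02 in naive T of both labels to 6.99 in WT and 7.34 in Nr4a-TKO. Herc6, its mouse ligase, changed by -2.01 and -1.98, and the conjugating enzyme Ube2l6 changed by -0.95 and -0.66. With Usp18, 3 of the 5 genes of this pathway were more than 2-fold lower under each label.

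Of 16 genes of interferon receptors and signalling, 10 were more than 2-fold lower in WT and 10 in Nr4a-TKO, and 1 was higher. The gene past 2-fold higher was Jak2, the kinase of the IFN-γ receptor and of several cytokine receptors, by 2.10 and 2.24. The falls were led by Socs3, an inhibitor of cytokine signalling (-4.23 and -2.94), and included Irf7, which amplifies type I interferon (-2.68 and -2.31). Of 16 interferon ligand genes on the array, 5 were not well above background anywhere (Ifnb1, Ifna4, Ifna11, Ifna12 and Ifne). None of the 8 measured in WT passed 2-fold, against 8.26% of all genes lower and 8.26% higher. In Nr4a-TKO, where 7.67% of all genes were lower and 7.63% higher, 1 of 11 ligands passed 2-fold. This was Ifng, which was well above background only on the array labelled Nr4a-TKO iTreg at 3 h (4.58), with a log2 change of at least 1.21. The medians of the ligands were -0.06 in WT and -0.07 in Nr4a-TKO.

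**Figure D3:**
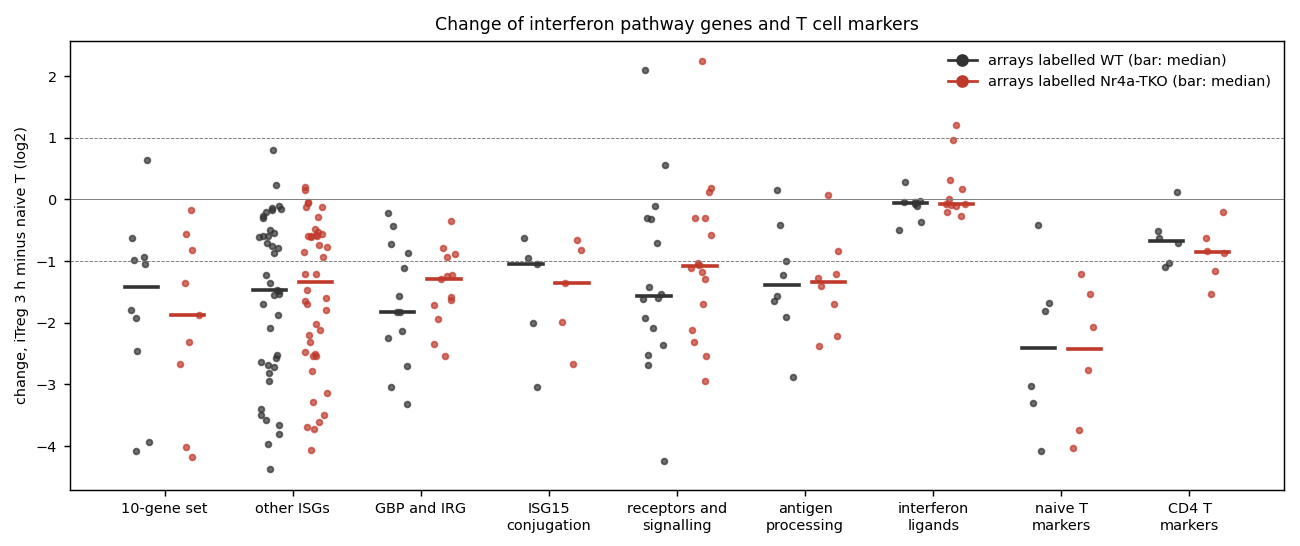
Log2 difference of iTreg at 3 h minus naive T for each measured gene of the interferon lists and of naive and CD4 T cell markers, with bars at the list medians. Values left and right within a list are the arrays labelled WT and Nr4a-TKO, 1 array per condition, and dashed lines mark 2-fold. Medians are -1.42 and -1.88 for the 10-gene set and -1.46 and -1.33 for the other interferon-stimulated genes. The interferon ligands lie above these (-0.06 and -0.07) and the naive T markers below (-2.41 and -2.42). Several ligand probes were near the floor, which left little room for a fall.

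The array-wide share of genes with the ISRE word was examined after these values were seen. Of 522 measured genes with an ISRE match in a promoter window, 14.4% were more than 2-fold lower at 3 h in WT and 7.09% higher. Among 13108 measured genes with no match, 8.84% were lower and 9.07% higher. Without the genes of the interferon lists, 489 genes with a match remained, of which 11.9% were lower and 7.57% higher. On the arrays labelled Nr4a-TKO, the corresponding shares lower were 12.7% of 529 genes with a match, 10.1% of 496 outside the lists and 8.18% of 13347 with no match. These shares describe 1 pair of arrays each.

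Markers of cell types were read beside these falls. CD4 T cell markers were well above background on all 4 arrays (6 of 6), and 2 of 6 were more than 2-fold lower at 3 h under each label, with medians of -0.67 in WT and -0.86 in Nr4a-TKO (Cd4 by -1.04 and -1.53). Naive T markers, which TCR stimulation lowers, were more than 2-fold lower in 5 of 6 genes in WT and 6 of 6 in Nr4a-TKO (S1pr1 by -4.08 and -3.74), so falls of this size were not particular to interferon-stimulated genes. For plasmacytoid dendritic cells, a source of type I interferon, 5, 4, 5 and 5 of 5 markers were above background in naive T (WT, then Nr4a-TKO) and in iTreg (WT, then Nr4a-TKO). Their summed linear intensity was 4800, 4301, 3668 and 3622, and none changed by 2-fold between naive T and iTreg, with medians of -0.22 and -0.21. Most of this sum came from Siglech, whose brightest probe read 11.67 to 12.08, so the sum follows 1 probe. Pacsin1 read 8.01 to 8.71, whereas Klk1 and Cox6a2 read 4.53 or less. Whether these signals come from such cells was not tested.

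Of 7 monocyte and macrophage markers, Adgre1 and Fcgr1 were above background on no array. The summed intensity of the 7 was 37616 in WT naive T, 39706 in Nr4a-TKO naive T, 34895 in WT iTreg and 34578 in Nr4a-TKO iTreg, nearly all from the brightest Itgam probe. The sum thus follows 1 probe and is no measure of how many such cells were present. Csf1r read 11.16 to 11.76, whereas Lyz2 and C1qa read 4.74 or less. Cd14 stood at 6.66 in WT naive T, 3.97 in Nr4a-TKO naive T, 3.77 in WT iTreg and 4.58 in Nr4a-TKO iTreg. It was lower at 3 h in WT by at least 2.89 on the log2 scale, but not in Nr4a-TKO. Of the 5 monocyte and macrophage markers measured in WT, only Cd14 passed 2-fold, and the median was -0.09. Above 0 were 2 of them, Lyz2 (0.46) and C1qa (0.01). B cell markers were above background on all arrays (5 of 5), with sums of 879, 973, 529 and 694, and the log2 change of Cd79b was -2.54 in WT and -1.20 in Nr4a-TKO. Of the 4 neutrophil markers, 4, 3, 2 and 2 were above background, with sums of 161, 130, 75.2 and 83.4. The part of such cells in the falls was not tested.

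Between the genotype labels, the 10 genes lay close together in naive T. Over the 10, the median log2 difference (array labelled Nr4a-TKO minus array labelled WT) was 0.01, with 5 genes above and 5 below 0. More than 2-fold lower was 1 gene, Oasl2, and 0 were higher, against 1.72% and 1.87% of all 26265 genes. On that array Oasl2 was at least 2.06-fold lower than on the one labelled WT, from a raw spot mean of 23.8 against 39.5 over a local background of 21. It passed the threshold narrowly as a bound, and the difference was -0.24 with the offset of 50 and -0.38 with no background correction. There Isg15 was higher by 0.49 and Mx1 by 0.73 (by at least 1.13 on its other probe). The other 7 genes differed by -0.14 to 0.18, which is about the array SD or less. Of 5 monocyte and macrophage markers measured in naive T, only Cd14 passed 2-fold, lower on the same array (-2.70). The median of the 5 was -0.02. Of 7 memory and effector T cell markers, S100a4 (-2.17) and Eomes (-1.36) were more than 2-fold lower there and Id2 was higher (1.03). Above 0 were 3 of these 7, with a median of -0.235. The part of these marker differences in the values of Oasl2, Isg15 and Mx1 was not tested.

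At 3 h, 7 of the 10 genes could be compared, and 0 were more than 2-fold apart, against 1.88% of all 26734 genes lower and 1.7% higher on the array labelled Nr4a-TKO. The median difference was -0.09. Isg20 was higher there by 0.55 (0.41 on its other probe) and Isg15 by 0.31, while Ifit2 (-0.30), Rtp4 (-0.24) and Usp18 (-0.22) were lower by little more than the array SD. Ifit1, Ifit3 and Oasl2 were not well above background on either array. Of the other interferon-stimulated genes, 1 of 41 was more than 2-fold apart, namely Tor3a (-1.56), an ATPase of the endoplasmic reticulum, which already differed by -0.87 in naive T. Among the guanylate-binding proteins Gbp6 was lower by at least 1.31 on the log2 scale. The median over this list was 0.37, with 8 of 13 genes higher on the array labelled Nr4a-TKO. The ligand Ifng was higher there by at least 1.15. Of 7 memory and effector T cell markers, Cd44 (1.56) and Cxcr3 (1.30) were more than 2-fold higher there, while 3 of the 7 were below 0. The 5 B cell genes were all above 0 (median 0.47), and Cd79a passed 2-fold (1.14). Ms4a1 (0.07) and Pax5 (0.11) lay under the array SD. The part of these marker differences in the values above was not tested.

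**Figure D4:**
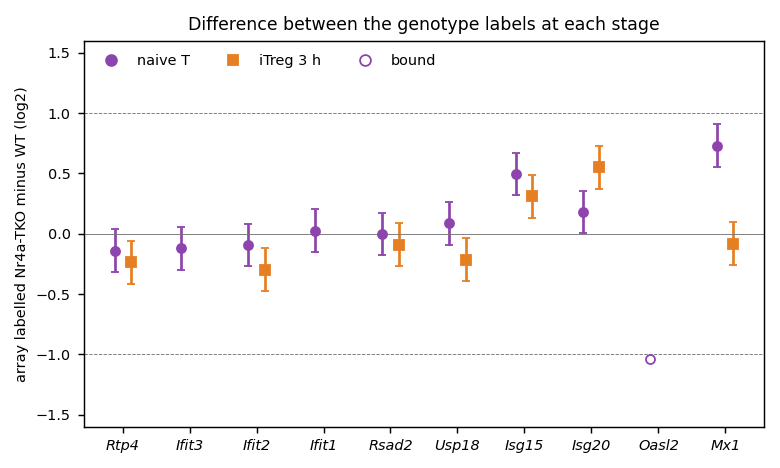
Log2 difference between the arrays labelled Nr4a-TKO and WT for each of the 10 genes, in naive T (circles) and in iTreg at 3 h (squares). Error bars are the array SD of 0.18 from repeated spots, not a spread between mice, and the open circle is a bound. Apart from the bound for Oasl2, all points lie within the dashed lines at 2-fold, from -0.30 (Ifit2 at 3 h) to 0.73 (Mx1 in naive T).

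Set against each other, the changes of the 2 genotype labels differed little. In the 7 genes that every array measured above background, the Nr4a-TKO change minus the WT change ran from -0.81 (Mx1) to 0.37 (Isg20), with a median of -0.19. None passed 2-fold, against 3.29% of all 22488 genes. The 5 genes between these extremes lay from -0.30 (Usp18) to -0.09 (Rsad2), so each had a slightly lower change under the label Nr4a-TKO. With 1 array per condition, a difference of this size in mice can be neither shown nor bounded.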

How the data were processed

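Total RNA was labelled with Cy3 and hybridised to 4 single-colour arrays, 1 per condition. The authors deposited the output of Agilent Feature Extraction 11.5.1.1 for each array, with the mean intensity and local background of each spot and its flags, and a log2 table of processed intensity scaled to the 75th percentile, which their methods do not describe (they name RMA and a 2-fold threshold). Probe coordinates in the files are on mm9.

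With limma 3.58.1 in R 4.3.3, normexp background correction (offset 0), quantile normalization over the 4 arrays, log2 and the mean over spots were applied. Control spots and 115 to 160 flagged spots per array were left out. A gene took its brightest probe. A dim probe was raised to the floor or kept at its own value where that was higher, and a difference needed 1 of the 2 arrays well above background. With 1 array per condition, no p-value was computed. Python 3.11.15, pandas 2.3.3, numpy 2.4.6 and matplotlib 3.10.9 were used for later steps. All 10 genes are named, and from each list at most the 3 furthest past 2-fold in each direction. Ifit3b, Ddx58, Adar, B2m, Ube2l6, Psmb8 and the cell markers were named after their values were seen. One gene that this rule names is not reported here. The genes and lists were chosen with earlier results of these data known. Alternatives were other background corrections and scalings, the authors' log2 table, averaging of all probes, stricter and no filters, and thresholds of 1.5-fold and 3-fold.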

Additional observations from a re-analysis of the deposited data

Results flagged for a closer look

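Some genes moved in opposite directions between the labels, and none of these differences could be tested. Between naive T and 3 h, Mx1 changed by 0.64 on the arrays labelled WT and -0.17 on those labelled Nr4a-TKO, a difference of -0.81. Equally, Mx1 was higher on the array labelled Nr4a-TKO in naive T (0.73) but not at 3 h (-0.08). Usp18 differed between the labels by 0.09 in naive T and -0.22 at 3 h, which are -0.30 apart. Of the wider lists, Ifitm3 gave changes of 0.81 under WT and -0.77 under Nr4a-TKO (a difference of -1.58) at levels of 3.77 to 4.68, and its label difference turned from 0.68 in naive T to -0.90 at 3 h. For Socs3 the label difference went from -0.63 to 0.66, which are 1.30 apart.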

How the results depend on the processing

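For WT, the median change of -1.42 became -2.11 with the 75th percentile scaling, -2.11 with the deposited values, -0.64 with an offset of 50, -0.89 with no background correction, -1.03 with the mean of all probes, -1.05 over genes above background on all 4 arrays and -1.79 with no filter. For Nr4a-TKO, -1.88 became -2.40, -2.40, -0.65, -1.02, -1.35, -1.35 and -1.64 in the same order. The count past 2-fold became 3 in both with the offset of 50, and 10 in WT at 1.5-fold (9 lower, and Mx1 higher), where 4543 of all 26428 genes were lower and 4408 higher. The naive T count between labels, 1, became 0 with the offset of 50, with no background correction, over genes above background on all 4 arrays and at 3-fold, and 2 at 1.5-fold, where 1396 of all 26265 genes were lower and 1349 higher. Ifit3 fell further than Rtp4 with the 75th percentile scaling (-4.57 against -4.37 in WT, -4.58 against -4.55 in Nr4a-TKO). The 3 h count between labels, 0, became 1 with no filter, where 974 of all 36644 genes were lower and 998 higher. The 1 gene was Oasl2, lower on the array labelled Nr4a-TKO. Its 3 h values of 2.61 in WT and 0.92 in Nr4a-TKO lay under the floors of those arrays (3.43 and 3.07). The offset and the lack of correction shrink differences of dim probes by construction, and the cause of the other moves was not tested. Other counts stayed within 1.5 times and other medians within 0.18. Of 244 single-gene values recomputed, 78 moved by at least 0.18, and no difference past 2-fold changed its sign. Dim signal limits Oasl2, Mx1 and the 3 h values of Ifit1 and Ifit3. No paired analysis was possible because each condition had 1 array.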
